A study of Arabidopsis thaliana with 8 samples.

Results

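The ethylene response of 1 double-mutant line of Arabidopsis thaliana, called e2e3 here, was described over all expressed genes. The line carries e2-2 and e3-2-2 (line #67), alleles of the pyruvate dehydrogenase complex (PDC), which makes acetyl-CoA from pyruvate. It is represented by 4 of the 8 libraries of the study: 2 from seedlings in hydrocarbon-free air and 2 from seedlings in 10 ppm ethylene, each a separately numbered replicate. The other 4 libraries, 2 in air and 2 in ethylene, come from e1e2 (e1-2-2 e2-2, line #17), so every library carries e2-2 and no wild-type library was analysed here. All seedlings were kept for 3 days in darkness on MS plates with sucrose before the gas. The labels give neither the hours of ethylene nor the loci behind the allele names, and each genotype is a single numbered line, so a feature of that line cannot be told apart from an effect of its alleles. Nor do they say whether the replicates were separate plantings, so the p-values measure only the spread between these samples, which may be technical.

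Ethylene is perceived at the endoplasmic reticulum by receptors (ETR1, ERS1, ETR2, ERS2 and EIN4) that, while empty, keep the kinase CTR1 active and the pathway off. Once ethylene binds, part of EIN2 moves into the nucleus, where the transcription factors EIN3 and EIL1 accumulate and switch on genes for ethylene response factors (ERFs), for several receptors and for the F-box proteins EBF1 and EBF2, which remove EIN3. In dark-grown seedlings the hormone is known for a short, thick hypocotyl, a short root and a tightened apical hook. The series title ties PDC to this pathway through histone acetylation directed by EIN2.

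Total counts were 14480759 and 18601837 in the air libraries and 14075249 and 14206221 in the ethylene libraries of e2e3. On the first principal component, which held 64.7% of the variance over the 8 libraries, air and ethylene libraries lay apart. As a check of the line label, mtLPD2, a gene for the E3 subunit of mitochondrial PDC, read 27.4 and 27.9 CPM (read counts per 1000000 after scaling) in air and 36.4 and 40.4 CPM in ethylene, against means of 134 and 149.7 CPM in e1e2. The seedlings held RNA of root and shoot, with endodermal CASP1 at 295 and 286 CPM and shoot LHCB3 at 511 and 534 CPM in air. In such bulk samples, fewer cells of a type and less RNA per cell cannot be told apart.

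Of 20193 tested genes, 8876 changed with ethylene in e2e3 (44%), at an adjusted p under 0.05 by edgeR's quasi-likelihood test: 4109 rose (20.3%) and 4767 fell (23.6%). With scaling by library size alone, which moved all changes by 0.08 on the log2 scale, the split turned to 5874 that rose and 3773 that fell, and DESeq2 called 6202 genes. The median size of the change, whatever its sign, was 0.429 on the log2 scale among the called genes. The air and ethylene libraries did not overlap for 14113 genes (69.9%), which with 2 libraries a side is also common among unchanged genes. By 2-fold or more, 402 genes rose (1.99%) and 965 fell (4.78%), while 28 rose and 39 fell by 8-fold or more. The genes that fell by at least 2-fold held 7.11% and 7.22% of the normalised counts in air and 2.59% and 2.71% in ethylene. Those that rose by at least 2-fold went from 0.84% and 0.85% to 2.38% and 2.37%.

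**Figure D1:**
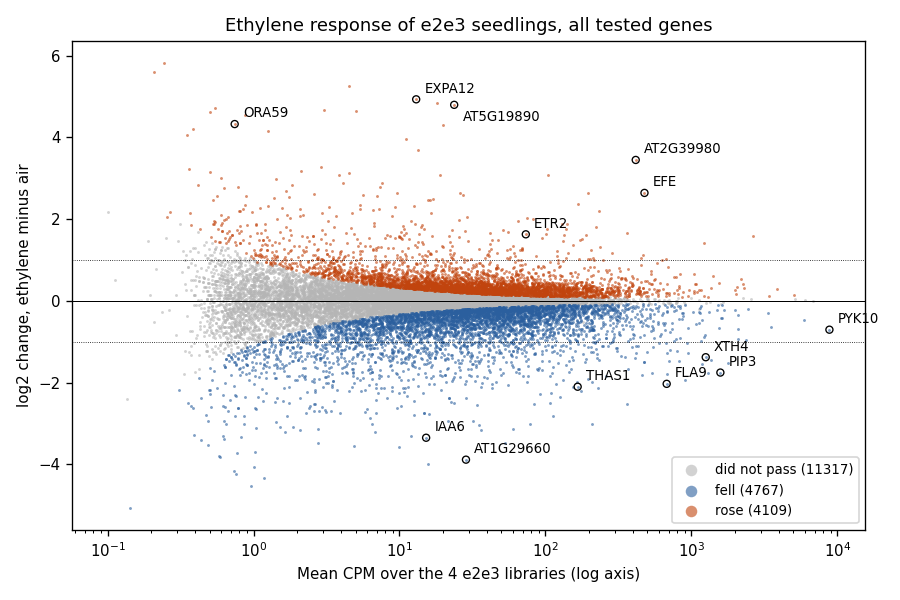
The log2 change with ethylene of each of the 20193 tested genes (vertical axis) against its mean CPM over the 4 e2e3 libraries (horizontal log axis), with dotted lines at 2-fold. The 4767 blue genes fell and the 4109 red genes rose, and more blue than red points lie beyond 2-fold (965 against 402).

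Ethylene perception was examined first. Of 8 genes for receptors and their partners, 5 rose (62.5%, against 20.3% of all genes), 1 fell and 2 did not pass. The median log2 change was 1.14. The receptor gene ETR2 read 37.6 and 34.4 CPM in air and 121 and 101 CPM in ethylene, and ERS2 read 42.5 and 39.6 CPM in air and 97.7 and 96.7 CPM in ethylene. Both rose, by 1.63 ± 0.06 (log2 ± SE, adjusted p = 1.08e-60) and 1.25 ± 0.06, and the treatments did not overlap. ERS1 went from 135 and 141 to 288 and 280.1 CPM and CTR1, the kinase below the receptors, from 122 and 122 to 296 and 282 CPM, changes of 1.04 ± 0.04 and 1.24 ± 0.04. The largest log2 rise of the group was that of RTE1, whose protein acts with ETR1, from 10.9 and 10 to 37.1 and 44.5 CPM. ETR1 (0.14 ± 0.06) and EIN4 (0.13 ± 0.08) did not pass, except with library size alone and, for ETR1, without e1e2 air replicate 1, and RAN1, the copper transporter that loads the receptors, fell from 310.1 and 324 to 243 and 237 CPM. No member of this group differed in its response from e1e2 by the test of the difference.

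**Figure D2:**
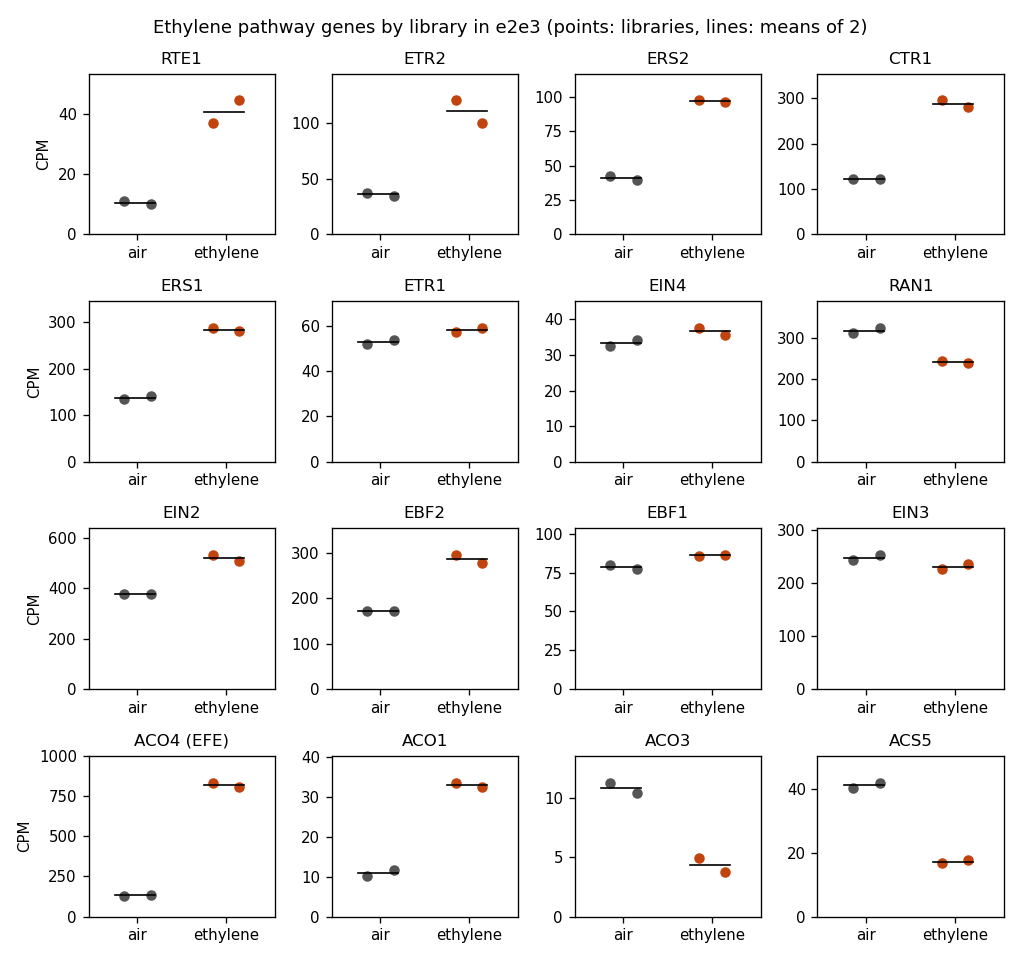
CPM of 16 ethylene pathway genes in each e2e3 library (points) with the mean of each pair (lines), each vertical axis starting at 0. The ethylene points of RTE1, ETR2, ERS2, CTR1 and ERS1 lie above their air points, RAN1, ACO3 and ACS5 lie below theirs, and ETR1, EIN4, EBF1 and EIN3 stay close to their air levels.

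The promoters of the pathway genes that moved together were read for short motifs of known factors, in the 250 bases before the annotated gene start, on both strands. Of the 15 genes of the ethylene lists that rose at least 2-fold with a mean of at least 5 CPM, 2 held ATGTAT or ATGTAC, the core bound by EIN3, and 0 held GCCGCC, the box bound by ERFs. The core was present in 30.3% of the promoters of all 19600 tested coding genes on the chromosomes, and the GCC box in 1.89%. The windows of ETR2 (chr3:8254309-8254558, plus strand) and ERS2 (chr1:1157814-1158063, minus strand) are the ones that held a core. They are shown 5′ to 3′ from TAIR10.1, with the core in capitals on whichever strand it lies.
ETR2: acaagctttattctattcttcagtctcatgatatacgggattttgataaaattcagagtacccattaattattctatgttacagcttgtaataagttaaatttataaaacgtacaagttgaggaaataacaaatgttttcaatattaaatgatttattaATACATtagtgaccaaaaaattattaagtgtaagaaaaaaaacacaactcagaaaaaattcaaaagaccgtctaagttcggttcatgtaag
ERS2: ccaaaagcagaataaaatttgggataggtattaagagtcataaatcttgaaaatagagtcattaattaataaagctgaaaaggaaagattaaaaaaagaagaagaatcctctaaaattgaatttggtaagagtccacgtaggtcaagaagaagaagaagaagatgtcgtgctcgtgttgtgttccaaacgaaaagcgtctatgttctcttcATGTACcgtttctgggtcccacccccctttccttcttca

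Over all genes that rose at least 2-fold, 39.3% of 379 promoters held a core of EIN3, as against 33.9% of 937 promoters of genes that fell at least 2-fold and 30.3% of all. The G-box CACGTG, a site of light-signalling factors, was in 7.65% of promoters of genes that rose, 11.3% of those that fell and 7.68% of all. ACGTGGC, a form of the abscisic acid response element that overlaps the G-box core, stood at 2.37%, 4.91% and 4.01%, and the evening element AAATATCT of the clock at 7.39%, 4.8% and 4.9%. The auxin response element TGTCTC was in 11.9%, 12.6% and 10.6%, and GCCGCC in 1.85%, 0.854% and 1.89%. These shares are descriptions with no test, and a match of letters is not a bound site.

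Below the receptors, changes were smaller. Of 11 signalling genes, 6 rose (54.5%, against 20.3% of all genes) and 3 fell (27.3%, against 23.6%), with a median of 0.13. EIN2 went from 378 and 377 to 531 and 507 CPM and EBF2 from 171 and 173 to 295 and 277 CPM, changes of 0.46 ± 0.04 and 0.73 ± 0.04. EBF1 moved far less (0.13 ± 0.05), and its rise did not pass DESeq2, nor the fits without air replicate 2 or either ethylene replicate. ETP1 and ETP2, F-box proteins that target EIN2, rose by 0.47 ± 0.10 and 0.58 ± 0.17, the second not without air replicate 2, and the weakly expressed EIL2 by 1.58 ± 0.30. EIN3 (−0.10 ± 0.04), EIL1 (−0.12 ± 0.05) and the exoribonuclease gene XRN4 (−0.13 ± 0.05) fell slightly, and none of these falls passed DESeq2, library size alone or no filter, nor the fits without air replicate 2 or ethylene replicate 1. EIN3 and EIL1 were also lost without e1e2 ethylene replicate 2, EIL1 without air replicate 1, e1e2 air replicate 1 or e1e2 ethylene replicate 1, and XRN4 without ethylene replicate 2. EIL3 (0.12 ± 0.10) and ENAP1 (AT3G11100, 0.02 ± 0.07), a partner of EIN2 on chromatin, did not pass.

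Among 19 response genes, 13 rose (68.4%, against 20.3% of all genes), 3 fell (15.8%) and 3 did not pass, with a median of 1.08. ERF1, an early target of EIN3, had 0.431 and 0.394 CPM in air and 2.86 and 4.73 CPM in ethylene, and ORA59, which joins ethylene and jasmonate signals, had 0 and 0.113 CPM in air and 1.61 and 1.25 CPM in ethylene. Both were almost silent in air and rose by 3.18 ± 0.38 and 4.32 ± 0.75. ERF11 rose by 3.07 ± 0.27 and ERF2 by 2.22 ± 0.19, from below 3 CPM in each air library. Of the related repressors TEM1 and EDF3, TEM1 read 91.7 and 95.5 CPM in air and 282 and 288 CPM in ethylene and EDF3 read 24.2 and 22.7 CPM in air and 79.1 and 77.5 CPM in ethylene, and both rose. ARGOS and ARL, which promote organ growth and dampen ethylene sensitivity, rose from 48.9 to 153 CPM and from 60.3 to 222 CPM (means), and EBP (ERF72) from 66.4 to 202 CPM. HLS1, needed for the apical hook, rose by 1.08 ± 0.06. Smaller rises were those of RAV2 (0.74 ± 0.06), the hevein-like PR4 gene (0.70 ± 0.04) and ERF5 (0.43 ± 0.13), the last lost in DESeq2 and without air replicate 1 or ethylene replicate 1. ERF4 (−0.63 ± 0.07) and the basic chitinase HCHIB (−0.56 ± 0.06), often used as an ethylene marker in leaves, fell, as did ERF6 (−0.44 ± 0.18), which did not pass DESeq2, library size alone or no filter, nor without air replicate 2 or either ethylene replicate. ERF8 (−0.18), ERF104 (−0.13) and RAV1 (−0.09) did not pass.

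Genes for making ethylene moved both ways. Of 15 tested, 4 rose (26.7%, against 20.3% of all genes) and 8 fell (53.3%, against 23.6%). ACC synthases, which set the rate of the pathway, made up 5 of the 8 that fell. ACC oxidases carry out the last step. The ACC oxidase ACO4 (EFE) had 129 and 135 CPM in air and 836 and 809 CPM in ethylene and rose 6.24-fold (adjusted p = 1.02e-146). ACO1 (AT2G19590) rose by 1.59 ± 0.10 and ACO5 (AT1G77330) by 0.52 ± 0.04, but ACO3 (AT1G12010) fell by 1.31 on the log2 scale, from 11.3 and 10.4 to 4.96 and 3.76 CPM. The synthase gene ACS5 read 40.4 and 42.1 CPM in air and 16.9 and 17.7 CPM in ethylene and ACS6 read 25.1 and 26 CPM in air and 10.2 and 12.8 CPM in ethylene, with the treatments well apart. ACS8 (−2.11 ± 0.38), ACS7 (−1.07 ± 0.23) and ACS2 (−0.96 ± 0.17) fell too. Of the proteins that mark synthases for removal, EOL2 (−0.72 ± 0.08) and ETO1 (−0.32 ± 0.06) fell, and EOL1 (−0.01) did not pass, as ACS9 (−0.46) and ACS11 (−0.29) did not.

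Auxin genes moved both ways. Of 63 SAUR genes, small auxin-induced genes that promote cell expansion, 36 fell (57.1%, against 23.6% of all genes) and 14 rose (22.2%, near the share of all genes). Their median was −0.79, and 25 fell at least 2-fold, as 4.78% of all genes did. Without air replicate 2 of e2e3, 9 rose. SAUR11 (AT5G66260) fell from 5.6 and 6.19 to 0.978 and 0.835 CPM. Against the others, SAUR76 (AT5G20820) had 1.87 and 1.97 CPM in air and 24.7 and 25.1 CPM in ethylene and rose by 3.69 ± 0.16, with SAUR35 (AT4G12410, 2.63 ± 0.17) and SAUR34 (AT4G22620, 2.62 ± 0.32) next. Neighbouring copies moved as a block: SAUR19, SAUR20 and AT5G18030 on chromosome 5 fell between −1.27 and −1.67, with the noncoding RNA gene AT5G02865 among them (−2.45), and SAUR26 to SAUR29 on chromosome 3 between −1.15 and −1.65. Members of this family share sequence, and the counting command in the file header sets no option for reads that map to several places, so their values are uncertain.

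Of 27 Aux/IAA repressors, which auxin removes, 11 fell (40.7%, against 23.6% of all genes) and 8 rose (29.6%, against 20.3%). IAA6 fell from 27.4 and 28 to 2.37 and 3.06 CPM and IAA19 from 166 and 170.2 to 44.3 and 49.6 CPM, and IAA5 fell as well (−1.55 ± 0.38). IAA30 rose by 1.11 ± 0.42, a rise lost with DESeq2 and without air replicate 1 or either ethylene replicate. Among 7 GH3 genes, whose enzymes join hormones to amino acids, 5 fell (71.4%, against 23.6% of all genes) and 1 rose (14.3%, against 20.3%). GH3.17 went from 115 and 105 to 27.8 and 33.7 CPM, and GH3.1 (−1.57), GH3.3 (−0.80) and DFL1 (−0.70) fell. For auxin synthesis and transport, 8 of 16 fell (50%) and 3 rose (18.8%, near the share of all genes), the largest changes being those of the YUCCA flavin monooxygenases YUC9 (1.77 ± 0.22) and YUC8 (−0.78 ± 0.14), of TAR2, an aminotransferase of auxin synthesis (0.95 ± 0.15), and of the efflux carrier PIN3 (−0.64 ± 0.04).

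In gibberellin genes, 8 of 17 fell (47.1%, against 23.6% of all genes) and 5 rose (29.4%, against 20.3%, or 3 genes with DESeq2). GA3OX1, the enzyme that makes active gibberellin, read 53 and 49 CPM in air and 16.8 and 19.8 CPM in ethylene. GA20OX1, the step before it, fell from 14.5 and 16.2 to 6.71 and 8.7 CPM. GA2OX8, which inactivates gibberellin, rose by 1.02 ± 0.24, and the DELLA repressor RGL3 fell from 27.1 and 24.8 to 12.5 and 13.4 CPM. The brassinosteroid enzyme DWF4 read 51.8 and 49.4 CPM in air and 15.6 and 17.5 CPM in ethylene, and BRI1, the receptor, fell (−0.36 ± 0.04). Of 7 brassinosteroid genes 4 fell (57.1%, against 23.6% of all genes). Of these, CPD (−0.12 ± 0.04) and BR6OX2 (−0.20 ± 0.06) did not pass DESeq2 or library size alone, nor without ethylene replicate 2. CPD was also lost without air replicate 2 or ethylene replicate 1, and BR6OX2 without air replicate 1. Among 8 cytokinin response regulators, 4 rose (50%, against 20.3% of all genes) and 3 fell (37.5%, against 23.6%). RR16 (ARR16) went from 2.01 and 1.75 to 8.8 and 9.05 CPM. ARR7 (0.96 ± 0.22), ARR3 (0.69 ± 0.11) and ARR6 (−0.56 ± 0.13) were next. Of 18 abscisic acid genes 5 rose, a share of 27.8% against 20.3% of all genes, and 8 fell (44.4%, against 23.6%): the receptors PYL6 (1.26 ± 0.31) and PYL5 (0.80 ± 0.07) and the response gene LTI78 (RD29A, 0.65 ± 0.03) rose, as did the phosphatase gene ABI1 (0.55 ± 0.04).

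Of 15 light-signalling genes, 1 rose and 7 fell (46.7%, against 23.6% of all genes), and with library size alone 3 rose and 5 fell. The gene that rose was PIF3, a factor that represses greening in darkness, from 149 and 139.8 to 288 and 289 CPM. Its relative PIF4, which drives hypocotyl elongation, went the other way, from 61.3 and 60.9 to 21.4 and 19.3 CPM, and HFR1 (−0.78 ± 0.07) and PIL1 (−0.54 ± 0.08) fell. Of 18 clock genes, 9 fell (50%, against 23.6% of all genes) and 2 rose (11.1%, 0 genes without ethylene replicate 2). The falls were led by the morning factors LHY (−0.87 ± 0.07) and CCA1 (−0.57 ± 0.08). LNK1 (AT5G64170, −0.58 ± 0.08) and RVE1 (−0.49 ± 0.12, lost without air replicate 2) stood beside them. Of 22 BBX factors 8 rose (36.4%, 5 genes with DESeq2) and 6 fell (27.3%, near the share of all genes), with BBX30, a small protein that blocks light factors, going from 1.44 and 0.844 to 0 and 0.209 CPM, a fall that DESeq2 did not call. BBX29 (−1.09 ± 0.25) and BBX19 (−0.83 ± 0.20) fell, and BZS1 (BBX20, 0.89 ± 0.10) rose.

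Nuclear genes for chloroplast proteins mostly changed by small amounts. Of 17 photosystem subunits 15 rose (88.2%, against 20.3% of all genes) and 0 fell, with a median of 0.24. The highest change was 0.36 (PSBY), and 10 of 14 chlorophyll genes rose (71.4%). PORB, an enzyme that makes chlorophyllide in light, read 1926 and 1960.1 CPM in air and 2546 and 2641 CPM in ethylene, and FLU, which restrains the pathway in darkness, rose by 0.45 ± 0.05. GLK2, an activator of these genes, fell (−0.60 ± 0.08). Light-harvesting genes were split, with 5 up (26.3%) and 8 down (42.1%, against 23.6% of all genes) of 19. With library size alone this turned to 7 up and 4 down. Without air replicate 2 or without ethylene replicate 1 of e2e3, 4 fell. LHCB2.3 (−0.94 ± 0.08) and LHCB2.2 (−0.50 ± 0.05) fell most.

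Genes that loosen or build the cell wall were lower in several families. Of 23 expansins, proteins that loosen the wall in growing cells, 17 fell (73.9%, against 23.6% of all genes), with a median of −0.78. Another 4 rose (17.4%, near the share of all genes), or 2 with DESeq2 or without air replicate 1. EXPB1 had 62.7 and 61.6 CPM in air and 6.64 and 8.56 CPM in ethylene and EXPA5 had 38.6 and 38 CPM in air and 3.63 and 6.26 CPM in ethylene, changes of −3.03 ± 0.10 and −2.95 ± 0.12. EXPA17 fell from 20.8 and 22.6 to 2.51 and 1.88 CPM. In the opposite direction, EXPA12 had 0.575 and 1.01 CPM in air and 24.9 and 25.6 CPM in ethylene and rose by 4.93 ± 0.19, the largest rise among genes with a mean of at least 5 CPM. Xyloglucan endotransglucosylases, which cut and rejoin wall polymers, were even, with 11 up and 11 down of 28. These shares were 39.3% each, against 20.3% and 23.6% of all genes. XTH21 (−1.86 ± 0.32) and XTH4 (−1.38 ± 0.03) fell, and XTH7 (1.54 ± 0.05) and XTH11 (1.25 ± 0.18) rose.

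Arabinogalactan proteins, sugar-rich surface proteins, fell in 31 of 41 cases (75.6%, against 23.6% of all genes), with a median of −0.70. In 2 cases they rose (4.88%, against 20.3%), or in 1 with DESeq2, without air replicate 1 or without ethylene replicate 1. AGP22 read 140.2 and 141 CPM in air and 15.8 and 19 CPM in ethylene, and FLA9 read 1069 and 1107 CPM in air and 253 and 279.7 CPM in ethylene. Both pairs of air libraries lay far above the ethylene libraries, with changes of −3.01 ± 0.07 and −2.03 ± 0.04. AGP13 (−1.96 ± 0.10) and AGP41 (−1.78 ± 0.26) followed. Tubulins, the subunits of the microtubules that guide cellulose deposition, fell in 14 of 15 cases (93.3%, against 23.6% of all genes). With 0 up (1 with library size alone), their median was −0.60. TUB8 went from 211 and 214 to 110.4 and 107 CPM, and TUB7 (−0.96), TUB1 (−0.92) and TUA1 (−0.84) fell next most. Of 9 cellulose synthases, 6 fell (66.7%, against 23.6% of all genes), by at most −0.49 (CESA6), and 1 rose (11.1%, against 20.3%). The rise was lost in DESeq2 and without either ethylene replicate. Of 10 pectin methylesterases, 7 fell (70%, against 23.6% of all genes) and 3 rose (30%, against 20.3%). PME61 went from 60.6 and 53.3 to 6.78 and 7.93 CPM. The inhibitor-like AT4G25250 of that class fell from 18.2 and 18.5 to 1.61 and 1.46 CPM. Among 12 genes for extensins, proline-rich proteins and a wall-associated kinase, 5 rose (41.7%) and 3 fell (25%, near the share of all genes). PRP2 (−1.78 ± 0.04) and PRP4 (−1.27 ± 0.03) were down and PRP1 (1.26 ± 0.07) was up.

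Of 29 aquaporins, 22 fell (75.9%, against 23.6% of all genes) and 4 rose (13.8%, against 20.3%). Of the list, 10 fell at least 2-fold, as 4.78% of all genes did, and the median was −0.48. The summed level of the list was 28090 and 28930 CPM in air and 15980 and 16630 CPM in ethylene. PIP2A, a plasma-membrane channel, had 2645 and 2669 CPM in air and 884 and 959 CPM in ethylene, and PIP3 (PIP2;7) had 2365 and 2508 CPM in air and 698 and 748 CPM in ethylene, changes of −1.53 ± 0.03 and −1.75 ± 0.03. PIP1C (−1.53 ± 0.03) and PIP2E (−1.66 ± 0.04) fell alike, and the vacuolar DELTA-TIP fell from 1957 and 2040.3 to 700.4 and 774 CPM. TIP2 and PIP1B were also among the 10 genes that lost most CPM. The 4 that rose were the boron channels NIP5;1 (33.4 to 57.9 CPM) and NIP6;1 (6.7 to 11.6 CPM), with BETA-TIP (16.9 to 24.5 CPM) and PIP2;5 (8.61 to 11.9 CPM), named after their values were seen.

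Every tested gene of the cutin, wax and suberin list fell, 13 of 13, against 23.6% of all genes. The median was −0.99, in a range from −1.88 to −0.61. With each alternative run, 12 or 13 still fell. These genes make the lipid layers of the shoot surface and of the root endodermis. CYP86B1, a suberin hydroxylase, read 27.2 and 24.8 CPM in air and 6.71 and 7.38 CPM in ethylene, and GPAT5, an acyltransferase of suberin, read 34.5 and 36.7 CPM in air and 13.3 and 12 CPM in ethylene. FAR4, which makes fatty alcohols of suberin (−1.80 ± 0.18), fell too, and so did GPAT6, of cutin (−1.36 ± 0.29, lost without air replicate 2). GDSL-type lipase genes outside the list stood among the largest falls of all genes: AT1G29660 had 51 and 56 CPM in air and 2.79 and 4.45 CPM in ethylene and AT1G75900 had 96.8 and 97.7 CPM in air and 7.4 and 10.2 CPM in ethylene. Beside these falls, the endodermal marker genes CASP1 to CASP5 fell, with log2 changes from −1.06 (CASP5) to −0.14 (CASP1), and the endodermis regulators SCR (0.11) and SHR (0.06) did not pass. The root marker list that holds these genes had 6 falls, or 5 with DESeq2 and 4 with library size alone. The part of these marker genes in the result was not tested.

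Of 9 genes of glucosinolate synthesis, 7 fell (77.8%, against 23.6% of all genes) and 0 rose, with a median of −0.54. CYP79B3, the first step of the indole branch, had 175 and 183 CPM in air and 36.5 and 38.7 CPM in ethylene, and CYP83B1 had 203 and 205 CPM in air and 89.2 and 92.9 CPM in ethylene, while CYP79B2 (−1.07 ± 0.06) and SOT16 (−0.57 ± 0.05) fell less. The myrosinase-type glucosidase PYK10 of endoplasmic reticulum bodies read 10872 and 11005 CPM in air and 6713 and 6709.6 CPM in ethylene and lost more CPM than any other gene, and its binding protein AT3G16420 and the lectin JAL34 were among the 10 largest losses too (−0.63 ± 0.03 and −0.93 ± 0.04). Of 20 phenylpropanoid genes, 12 fell (60%, against 23.6% of all genes) and 1 rose (5%, against 20.3%). FAH1 (AT4G36220, −1.07 ± 0.17) and HCT (−0.71 ± 0.04), enzymes of lignin precursors, fell most. PAL4 (−0.52 ± 0.05) and CAD5 (−0.42 ± 0.04) came next. Over 157 cytochrome P450 genes, 70 fell (44.6%, against 23.6% of all genes), and 35 fell at least 2-fold, as 4.78% of all genes did. Another 26 rose (16.6%, against 20.3%), or 17 genes with DESeq2, without air replicate 2 or without ethylene replicate 2.

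Neighbouring genes moved together in 2 gene clusters of triterpene synthesis on chromosome 5. Arabidopsis makes the root triterpenes thalianol and marneral with enzymes whose genes sit side by side, each group with its oxidosqualene cyclase (THAS1, MRN1) and modifying P450s. In the thalianol group THAS1 read 267 and 272 CPM in air and 61 and 64.9 CPM in ethylene, CYP708A2 read 252 and 250.2 CPM in air and 55.1 and 61.9 CPM in ethylene, CYP705A5 read 366 and 381 CPM in air and 85.1 and 86.4 CPM in ethylene, and the acyltransferase gene AT5G47980 read 18.5 and 16.9 CPM in air and 4.12 and 3.97 CPM in ethylene. Their log2 changes were −2.10 ± 0.05, −2.10 ± 0.05, −2.12 ± 0.04 and −2.12 ± 0.15, so these 4 adjacent genes fell by nearly the same factor. In the marneral group MRN1 read 185 and 180.1 CPM in air and 30.1 and 34 CPM in ethylene and CYP71A16 read 63.9 and 66 CPM in air and 6.71 and 7.73 CPM in ethylene. CYP705A12 (−2.38 ± 0.10) and the unnamed noncoding RNA gene AT5G00580 (−2.32 ± 0.15) of the same group fell too.

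Each group was a run of adjacent tested genes that fell at least 2-fold, and it need not hold every gene of its cluster. By that rule, the tested gene next to either end did not fall 2-fold. The tested genes around these groups were mixed. Beside the thalianol group, AT5G47970 (0.18 ± 0.13) and AT5G48020 (−0.05 ± 0.07) did not pass. AT5G47950, another acyltransferase gene further out, fell more than 2-fold but less than that group (−1.11 ± 0.09). The tested genes between it and the group did not pass, so it stood outside the run. Beside the marneral group, AT5G42570 (0.04 ± 0.06) did not pass and AT5G42620 fell (−0.42 ± 0.06). Further out on that side ATS fell more than 2-fold (−1.40 ± 0.32) and AOS less (−0.38 ± 0.09), while on the other side XRN2 rose (0.49 ± 0.06) and AT5G42530, at the edge of the window, rose by 2.88 ± 0.19. These neighbours were named after their values were seen. The fall of MRN1 was larger than in e1e2 (−2.00), with a difference of −0.51 ± 0.08 (adjusted p = 4.56e-06), and those of the thalianol genes did not differ by that test (adjusted p from 0.333 for CYP708A2 to 0.984 for CYP705A5).

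**Figure D3:**
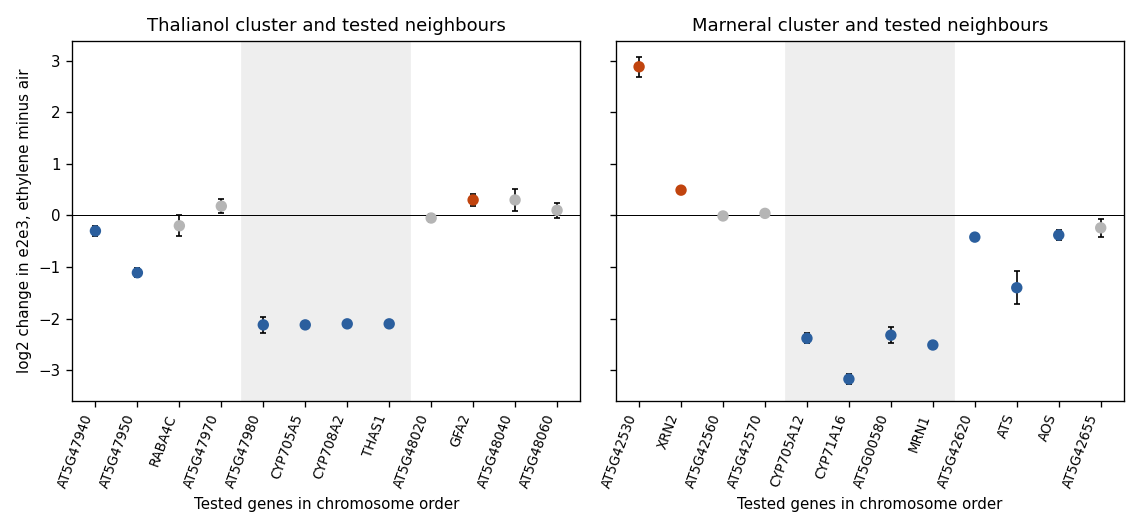
The log2 change with ethylene (± SE) of the tested genes in chromosome order across both triterpene clusters, shaded, with 4 tested neighbours on each side. The 4 shaded genes of the thalianol group lie between −2.12 and −2.10 and those of the marneral group between −3.17 and −2.32, while the nearest neighbours lie between −0.42 and 0.18. Shaded genes were chosen as runs that fell at least 2-fold, so by that rule the gene next to either end did not.

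The 250 bases before the gene start are shown for both cyclases and for the P450 genes that held one of the fixed motifs, since these neighbours fell together. THAS1 lies at chr5:19456587-19456836, plus strand, CYP708A2 at chr5:19447867-19448116, minus strand, MRN1 at chr5:17053203-17053452, plus strand and CYP705A12 at chr5:17025362-17025611, minus strand, all on TAIR10.1. Capitals mark the evening element in CYP708A2 and the core of EIN3 in CYP705A12, and THAS1 and MRN1 hold 0 of the fixed motifs in this window.
THAS1: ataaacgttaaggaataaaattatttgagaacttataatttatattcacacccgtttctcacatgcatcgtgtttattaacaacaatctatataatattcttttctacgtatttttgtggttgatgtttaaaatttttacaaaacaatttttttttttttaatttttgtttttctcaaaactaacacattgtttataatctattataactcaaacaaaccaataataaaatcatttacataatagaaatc
CYP708A2: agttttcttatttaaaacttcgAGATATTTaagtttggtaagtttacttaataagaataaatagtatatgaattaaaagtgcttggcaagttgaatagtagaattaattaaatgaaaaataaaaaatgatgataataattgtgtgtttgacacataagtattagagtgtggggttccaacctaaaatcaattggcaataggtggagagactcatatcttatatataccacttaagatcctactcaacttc
MRN1: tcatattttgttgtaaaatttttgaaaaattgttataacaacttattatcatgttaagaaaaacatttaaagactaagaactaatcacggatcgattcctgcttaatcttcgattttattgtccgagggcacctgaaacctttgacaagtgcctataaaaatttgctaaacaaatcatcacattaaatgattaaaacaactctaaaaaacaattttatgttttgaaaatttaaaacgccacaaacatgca
CYP705A12: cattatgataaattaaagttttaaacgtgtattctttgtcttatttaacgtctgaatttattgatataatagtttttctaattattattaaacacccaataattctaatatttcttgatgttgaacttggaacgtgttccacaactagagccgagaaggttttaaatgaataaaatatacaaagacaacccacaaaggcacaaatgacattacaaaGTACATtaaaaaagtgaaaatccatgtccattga

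Besides these clusters and the SAUR groups, 4 further runs of at least 4 neighbouring tested genes moved the same way by at least 2-fold. Most of them hold related copies. On chromosome 4, 5 thioredoxin-superfamily genes from AT4G15660 to AT4G15700 rose, AT4G15700 from 0.646 and 0.281 to 3.14 and 3.27 CPM. AT4G15660 did not pass without air replicate 2 or without ethylene replicate 2. Their relative AT5G18600, elsewhere on chromosome 5, had 4.6 and 5.8 CPM in air and 15.9 and 14.5 CPM in ethylene. Another rising run on chromosome 4 held the methyltransferase gene AT4G35160 (91.9 to 263 CPM) and LOG5 (24.9 to 69.5 CPM), which activates cytokinins, with AT4G35200 and AT4G35210 at about 1 CPM, neither of which passed DESeq2 or the fits without either air replicate. AT4G35200 was also lost without ethylene replicate 1 and AT4G35210 without ethylene replicate 2. The falling runs were 4 genes of the cysteine- and histidine-rich C1 domain type on chromosome 2, among them AT2G02680 (22.9 to 8.82 CPM), and 5 DUF247 genes on chromosome 3, among them AT3G50120 (9.98 to 2.41 CPM). In the DUF247 run, AT3G50150 and AT3G50190 did not pass DESeq2, nor without air replicate 1 or ethylene replicate 1, and AT3G50150 not without air replicate 2.

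Several of the largest rises lay outside the lists. AT5G40590, a C1-domain gene, had 0.934 and 1.46 CPM in air and 35.3 and 35.1 CPM in ethylene, and the peroxidase gene AT5G19890 had 1.65 and 1.63 CPM in air and 45.7 and 45.9 CPM in ethylene. Both were close to 1 CPM in air and above 35 CPM in each ethylene library. Another peroxidase gene, AT1G49570, went from 23.6 and 21.1 to 185 and 188 CPM. The acyltransferase gene AT2G39980 had 65.5 and 73.6 CPM in air and 762 and 761 CPM in ethylene, a rise of 10.9-fold (adjusted p = 2.1e-162). The glutathione transferase GSTU3, which is on a list, rose by 4.65 ± 0.29. The aminotransferase-like AT1G50110 rose by 3.09 ± 0.12, the cellulase-type hydrolase GH9B12 by 2.58 ± 0.10, CYP718 by 2.63 ± 0.10 and the transcription factor LBD25 by 2.58 ± 0.21. Of the genes with most CPM gained, FDH, formate dehydrogenase, rose from 666 and 661 to 1808 and 1761 CPM, and COR47, a dehydrin of cold and drought, from 1802 and 1795 to 2600.3 and 2579 CPM.

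Other large falls began with AT5G41900, a gene for an alpha/beta hydrolase, at 29.9 and 29 CPM in air and 1.12 and 2.58 CPM in ethylene. MSRB9, a methionine sulfoxide reductase, had 365 and 371 CPM in air and 40.2 and 51.7 CPM in ethylene, and the phosphoglycerate mutase-like AT5G04120 had 192 and 201 CPM in air and 26.1 and 29.6 CPM in ethylene. ICS2, isochorismate synthase (−3.13 ± 0.08), the kinase gene PERK15 (−3.01 ± 0.21) and CYP71B13 (−2.79 ± 0.15) fell as well. AT2G10940, a lipid-transfer-type protein gene, went from 1962 and 2062 to 555 and 620.1 CPM. At low counts, 5 genes passed between 3 or fewer counts in one treatment and at least 20 in each library of the other. AT2G44070, next to ARL on chromosome 2, went from 2 counts over both air libraries to 48 over both ethylene libraries, which scaled by depth is 26.5 times as many (exact binomial interval 6.95 to 225, counting error only). In the other direction PHE1 had 44 counts in air and 2 in ethylene, LAF1, a MYB factor of phytochrome A signalling, 57 and 2, AT2G43890 73 and 3, and AT4G11020 60 and 3.

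Transcription factor families moved in both directions. In ERF and DREB factors 11 rose and 7 fell of 35 (4 with library size alone), with DREB1A, a cold factor, at 1.15 and 0.675 CPM in air and 0.14 and 0 CPM in ethylene. Of 57 WRKY factors 9 rose and 12 fell, a balance that library size alone turned to 15 and 9: WRKY56 (−2.97 ± 0.46) and WRKY24 (−2.62 ± 0.61) fell and WRKY45 (1.31 ± 0.13) and WRKY40 (1.04 ± 0.20) rose. Of 70 NAC factors 9 rose and 17 fell (10 with DESeq2, 11 without air replicate 1), with NAC019 (1.55 ± 0.18) and NAC6 (1.24 ± 0.10) up. Shares of calls in these families, 51.4%, 36.8% and 37.1%, lay near the 44% of all genes.

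Of 28 cyclins 7 fell, and this 25% lay near the 23.6% of all genes (4 fell without ethylene replicate 1), while 2 rose (1 with DESeq2 or without any 1 of the e2e3 libraries). The lowest were CYCA1;1 (−1.02 ± 0.22), CYC1BAT (−0.88 ± 0.15) and CYCD1;1 (−0.81 ± 0.07). Of 19 histone genes 8 fell (42.1%) and 0 rose, by at most −0.40 (HTA12). With library size alone 3 fell and 3 rose, and 4 fell with DESeq2 or without air replicate 2. Of 8 iron genes 4 rose (50%, against 20.3% of all genes, and 2 genes without ethylene replicate 2). IRT1, the root iron transporter, had 11.7 and 11.1 CPM in air and 28.5 and 28 CPM in ethylene. FRO2, the ferric reductase that works with it, had 3.81 and 2.98 CPM in air and 7.54 and 7.24 CPM in ethylene. Of 8 nitrogen genes 5 rose (62.5%) and 2 fell (25%, near the share of all genes). The nitrate transporters NRT2:1 (−0.84 ± 0.24) and NRT1.1 (−0.55 ± 0.03) were down and ASN1 (0.41 ± 0.03) was up. Of 32 glutathione transferases 11 rose (34.4%, 8 genes with DESeq2) and 10 fell (31.2%, 5 genes with DESeq2 or without air replicate 1, 6 without ethylene replicate 1), against 20.3% and 23.6% of all genes. GSTU3 (4.65), GSTU4 (1.76 ± 0.13) and GSTF2 (1.28 ± 0.14) were up. Of 4 root hair markers EXPA7 (0.43 ± 0.08) and EXPA18 (0.22 ± 0.08) rose, the second not by DESeq2 or without air replicate 1 or ethylene replicate 2. Of 9 seed genes 4 fell (44.4%), among them OLEO2 (−1.20 ± 0.06) and EM1 (−1.03 ± 0.06). Of 3 touch genes 2 fell (66.7%, 1 gene without air replicate 1), with TCH2 at −0.40. None of these seed genes rose, but 2 rose without air replicate 1. Root tissue markers had 6 of 11 down (54.5%, against 23.6% of all genes), or 5 with DESeq2 and as few as 4 with library size alone or a library left out. The stem-cell factors PLT1 (0.25), PLT2 (0.15) and WOX5 (−0.93) did not pass. Among the 8 mitochondrial PDC genes, mtLPD2 rose by 0.47 ± 0.07, and the other changes lay between −0.17 (AT3G13930) and 0.18 (AT1G54220). Of the 8 genes, 3 fell (37.5%, against 23.6% of all genes). With library size alone 0 fell and 3 rose, and 1 fell with DESeq2 or without either air replicate or ethylene replicate 1.

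**Figure D4:**
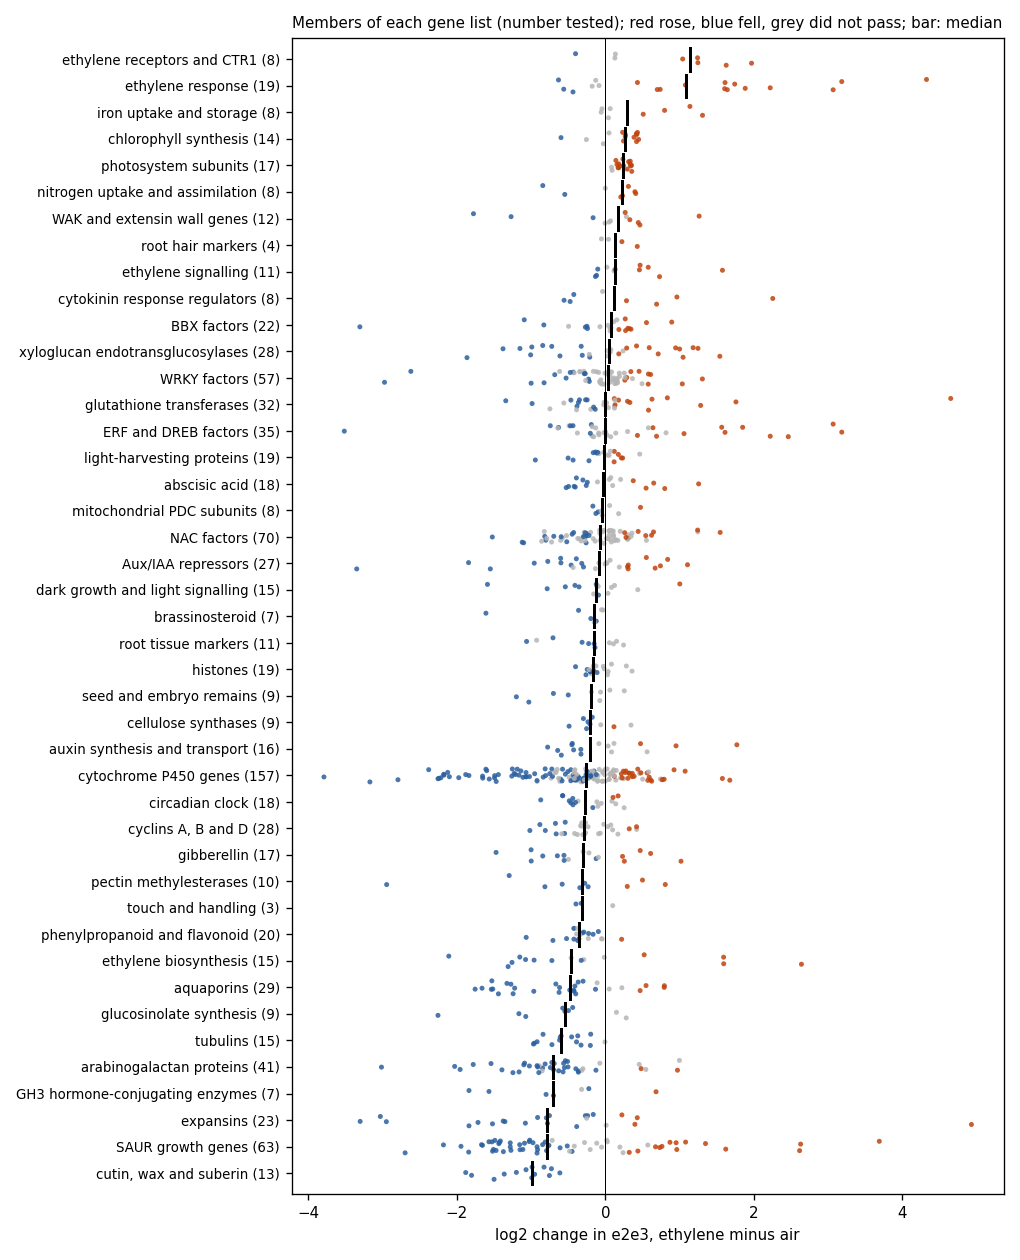
The log2 change with ethylene in e2e3 of each tested member of 43 gene lists (points, coloured by the call), ordered by list median (black bars). The lists of ethylene receptors and of ethylene response have the highest medians (1.14 and 1.08), and the list of cutin, wax and suberin has the lowest (−0.99), against 0.01 over all tested genes.

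Next to e1e2, the response of e2e3 differed for 566 of 20193 genes (2.8%), by the interaction test in the same fit: 310 changed more upward (1.54%) and 256 more downward (1.27%) in e2e3, 32 of them by at least 2-fold. This count was sensitive, at 226 by DESeq2 and at 240 to 263 without e1e2 ethylene replicate 2, e2e3 ethylene replicate 2 or e1e2 ethylene replicate 1, and at 367 without e2e3 air replicate 1. Of the genes that changed at least 2-fold in e2e3, 80 differed. Of these, 42 falls and 15 rises were larger in e2e3 and 8 falls and 15 rises were smaller. The genes were chosen by their change in e2e3, which alone favours larger changes there, so these counts are no test. The peroxidase AT1G49570 rose by 3.07 in e2e3 and 2.34 in e1e2, and EXPA12 by 4.93 and 3.71. Among rises that were smaller in e2e3, AT4G01870 changed by 1.49 against 2.10 and CHX17, a cation exchanger gene, by 0.40 against 1.04. The iron genes IRT1 and FRO2 rose more in e2e3, by 0.60 ± 0.12 (adjusted p = 0.000377) and 0.72 ± 0.22 (adjusted p = 0.0466). PXMT1, a methyltransferase gene, fell in e2e3 (−0.80 ± 0.06) and stood at −0.01 in e1e2.

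Small differences of one sign ran through the photosynthesis lists. Of 19 light-harvesting genes, 17 changed more upward in e2e3 than in e1e2, and of 17 photosystem genes 13, with 0 in the other direction in either list, against 1.54% and 1.27% of all genes. The medians of the difference were 0.29 and 0.23. These list counts were taken in the main fit alone, and over all genes DESeq2 called fewer differences (226 against 566). For LHCB2.2 the change was −0.50 in e2e3 and −1.01 in e1e2, and for LHCB2.3 −0.94 and −1.45. Plastid-encoded genes, whose transcripts mostly lack long poly(A) tails, were also among the largest differences, with ATCG00280 at 1.38 ± 0.29 and ATCG00480 at −0.73 ± 0.07. All plastid-encoded genes together held 0.0983% to 0.149% of the counts of a library.

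Wild-type seedlings are represented by a table of the authors. The authors' deposited table lists 1242 genes that changed in wild type, 507 up and 735 down, none by less than 2-fold, and 1190 of them were tested here. In e2e3, 916 of these 1190 passed in the wild-type direction (77.0%), 27 passed in the opposite direction and 247 did not pass. Of 472 genes listed as up, 322 rose (68.2%, against 20.3% of all genes), and of 718 listed as down, 594 fell (82.7%, against 23.6%). Many of the genes listed as up are plastid-encoded. Most of these did not pass in e2e3, such as ATCG00280 (1.49 in wild type and 0.34 in e2e3). The share of 68.2% and the medians that follow include them. The median change of the up genes was 1.49 in the authors' deposited table and 0.92 in e2e3, and that of the down genes −1.45 and −1.05. The same genes had medians of 0.95 and −1.04 in e1e2. The list was chosen by its change in wild type, so a smaller change elsewhere is a description and no test, and the wild-type libraries were not analysed here. Of the genes that changed at least 2-fold in e2e3, 182 that rose and 584 that fell are not on the list.

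Of the 27 genes that went the other way, 5 are given here. ADH1, alcohol dehydrogenase, rose by 0.74 ± 0.10 in e2e3 and is listed at −1.03 in the authors' deposited table, and the light-stress gene ELIP2 rose by 1.59 ± 0.16 and is listed at −2.11. The oleosin gene OLEO4 (−0.56 ± 0.10) and the seed storage gene PAP85 (−0.69 ± 0.13) fell and are listed at 1.55 and 1.71. PGAZAT, a polygalacturonase, is listed at 5.13 and fell (−0.35 ± 0.09). These genes were chosen after their values were seen.

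**Figure D5:**
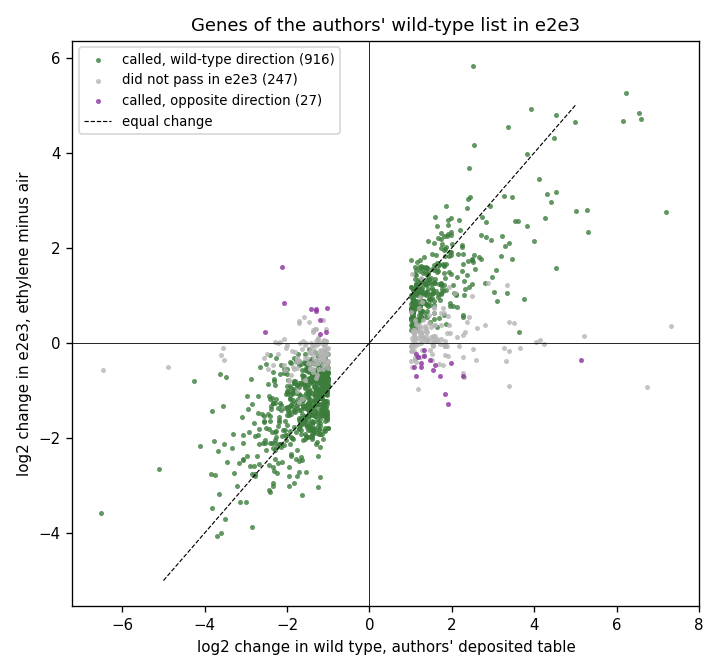
The log2 change with ethylene in e2e3 (vertical axis) against that in wild type from the authors' deposited table (horizontal axis) for the 1190 listed genes that were tested, with a dashed line of equal change. Green points (916) passed in the wild-type direction, grey points (247) did not pass and purple points (27) passed in the opposite direction.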

How the data were processed

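RNA-seq libraries from 8 samples of poly(A) RNA were deposited as raw read counts per gene. Per the file headers, the authors counted with featureCounts v2.0.1 on paired reads against an Araport11 annotation, with no strand option set. Per the submitters' processing notes, the tools named include Trim Galore, FastQC and STAR, besides Subread 2.0.1 and DESeq2, and the build is TAIR10. The log2 fold changes for wild type come from a deposited table of the authors, and p-values of the authors' deposited tables for each line are not printed. Counts were tested as deposited with edgeR 4.0.16 (R 4.3.3): genes kept by its expression filter within groups, TMM scaling, and a robust quasi-likelihood fit over all 8 libraries and 4 groups. Each gene's spread was drawn mostly from that shared over genes (median prior degrees of freedom 218, against 4 residual). Benjamini-Hochberg adjusted p under 0.05 over all 20193 genes was a call. Alternatives were DESeq2 1.42.0, library size alone, no filter, e2e3 alone, a test against 2-fold, a replicate block and each library left out. The common biological coefficient of variation was 2.75%. The test was also run on counts simulated with the same dispersion for every gene and few changed genes. Such counts do not show how the test performs on these data. CPM is over TMM-scaled totals, and totals from 14075249 to 18601837 limit the precision of weak genes. Symbols and sequences come from RefSeq on TAIR10.1, which matched 36632 of 36799 loci. Named were the 20 largest changes each way among called genes of at least 5 CPM with groups apart, the 10 largest CPM gains and losses, ethylene list members, up to 4 called members of other lists, genes with at most 3 counts in one treatment, runs of neighbours and PDC genes, and for the difference between lines the 10 genes with smallest adjusted p and the 10 largest. Members and lists were chosen with earlier results of these data known. A member of the ethylene lists is not reported here.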

Additional observations from a re-analysis of the deposited data

Results flagged for a closer look

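Of the genes named or listed, 58 responded to ethylene differently in e2e3 and e1e2, by the interaction test in the edgeR fit with adjusted p under 0.05. Each value below is the log2 response in e2e3 minus that in e1e2. A positive value can be a larger rise or a smaller fall in e2e3, and a negative value a smaller rise or a larger fall. No cause of these differences was tested, and the count of such genes over all tested genes fell to 226 with DESeq2.

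Nuclear genes of photosynthesis and chlorophyll synthesis changed more upward in e2e3, with PORA at 0.21, PSBX at 0.23, RBCS1A at 0.24, PSAF at 0.25, RBCS3B at 0.25, PSI-P at 0.25, CA2 at 0.2, PSBY at 0.28, Lhca6 at 0.37, LHCB2.1 at 0.47, LHCB2.2 at 0.51 and LHCB2.3 at 0.51. Plastid-encoded genes lay on both sides, with ATCG00480 at −0.73, ATCG00680 at 0.96, ATCG00020 at 1.01 and ATCG00280 at 1.38. Iron uptake genes were higher, with IRT1 at 0.6 and FRO2 at 0.72. Of ethylene genes, EIN2 at −0.17, EBF1 at −0.25 and AT1G12010 (ACO3) at −0.88 had negative values. ENAP1 (AT3G11100) had a positive value, at 0.39. Among wall and phenylpropanoid genes, the changes were EXT12 at −0.37, PRP2 at −0.18, PRP4 at −0.15, TUB1 at −0.36 and PAL4 at −0.23, while EXPA12 stood at 1.22. Seed, stress and abscisic acid genes split, with LTI65 at −0.49, OLEO2 at −0.45, LEA7 at −0.43, ABI1 at −0.18, EM1 at 0.31 and KIN2 at 0.78. Other genes with a negative difference were AT1G76470 at −0.98, PXMT1 at −0.79, CHX17 at −0.64, AT4G01870 at −0.61 and LOG5 at −0.56. MRN1 at −0.51, AT4G35160 at −0.28, NRT1.1 at −0.21 and FDH at −0.18 were negative too. Other genes with a positive difference were AT2G10940 at 0.18, NIA1 at 0.2, AT2G39980 at 0.26 and PIP2E at 0.27. AZI1 at 0.28, CYP79B3 at 0.3 and mtLPD2 at 0.32 were positive too. The remaining positive values were DOT1 at 0.44, AT1G49570 at 0.73, AT2G05510 at 0.75 and AT1G03106 at 0.94. Beyond these were AT5G18600 at 1.13, AT2G18210 at 1.16, AT1G15010 at 1.29 and AT1G64795 at 1.62.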

How the results depend on the processing

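The count of 8876 changed genes was within 1.5 times under DESeq2 (6202), library size alone (9647), no filter on low counts (8674), a replicate block (8798) and the e2e3 libraries alone (8811). Under DESeq2 the genes that rose numbered 2714. A test against 2-fold, which is stricter by construction, called 603 genes, 160 that rose and 443 that fell. Leaving out one library in turn gave 7291 to 9141 calls, 3301 to 4528 that rose and 3823 to 4840 that fell. Of the 8876 calls, 6201 were kept with the same sign by DESeq2, 7882 by library size alone and 8763 with the block, and 0 were called with the opposite sign in any of these. The difference between lines ranged from 240 to 545 genes over the left-out libraries and was 226 with DESeq2; the cause was not tested. Requiring 3 neighbours in place of 4 gave 17 runs in place of 8. Of 302 named genes, 0 reversed under any alternative, and 39 lost their call under at least 1, such as EIN3, EIL1 and ERF6. Of the pairing of replicate numbers, the deviations of same-numbered libraries correlated at −0.016 in e1e2 and 0.001 in e2e3. Counting noise draws such a correlation towards 0, so it cannot tell whether same-numbered libraries were handled together. The block gave 4063 that rose, 4735 that fell and 580 genes that differed between lines. With 2 libraries a group, weak genes gave wide errors, and a missing call there does not show that a gene was unchanged.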
